A study of Sus scrofa domesticus with 150 samples.

Results

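The 9 genes PLAU, PLAUR, PLAT, SERPINE2, F3, THBD, F13A1, TFPI and TFPI2, which act in blood clotting and in the removal of fibrin, were followed through the healing of full-thickness skin wounds in pigs. They were taken by symbol from the 30461 gene rows of the count table, and all 9 were found, each as 1 row. In 6 female Yorkshire-mix pigs, round excisional wounds were covered with a non-adherent film and an adhesive dressing and received no other treatment. Each of 72 wounds gave 1 punch biopsy from its edge and 1 from its center on 1 of 14 days. Excised skin gave the 6 samples of day 0, 1 per animal. Animals 1323, 1324 and 1325 were sampled on days 1, 3, 5, 7, 11, 15 and 21, and animals 1326, 1327 and 1328 on days 2, 4, 6, 9, 13, 16 and 19, so that neighbouring days differ in their animals as well as in time. The wound letters in the labels also change along the course, from A and L on days 1 and 2 to I on days 19 and 21. Changes over days therefore cannot be told apart from changes of the labelled wound. On 10 days each location has 6 libraries, from 2 wounds of each of 3 animals, and on days 15, 16, 19 and 21 it has 3. A day and a location together are called a state, which makes 29 states and 150 libraries of poly-A RNA.

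Clotting in a wound starts when tissue factor, the product of F3, meets factor VII of the blood, and it ends with a fibrin mesh that factor XIII, whose catalytic subunit F13A1 encodes, crosslinks. Fibrin is removed by plasmin, which PLAU (urokinase) and PLAT (tissue-type plasminogen activator) release from plasminogen, and urokinase acts at the cell surface bound to its receptor PLAUR. TFPI blocks the tissue factor complex, THBD turns thrombin from a clotting enzyme into an activator of protein C, and SERPINE2 and TFPI2 inhibit thrombin, plasminogen activators or plasmin in the matrix. Most circulating clotting factors are made in the liver, while these 9 genes are expressed by cells of the tissue or by leukocytes that enter it.

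Library totals ran from 13133379 to 24895572 counts, and each of the 9 genes had over 3 counts in each library, so none was at the limit of detection. TFPI came closest to it, at 14 counts in its lowest library. The keratinocyte marker list (mean log2(1 + CPM) of its genes, CPM being counts scaled to a common library total) separated the locations: it lay between 9.79 and 11.96 in 71 edge libraries, and between 0.762 and 6.95 in 51 center libraries of days 1 to 11. The other 4 libraries of these groups went against their labels. Center replicate 5 of day 1 was at 10.07, center replicate 4 of day 3 at 10.89 and center replicate 1 of day 11 at 9.74, and edge replicate 6 of day 3 was at 2.55. Without these 4 libraries, all 177 calls of the 9 genes against day 0 and all 52 between edge and center on single days were kept, with 2 and 5 added, and values that moved are given beside the results. The 4 were picked after seeing the data, by a list that separates edge from center. Tests without them are therefore not independent of that choice. By the correlation of their counts, 6 libraries, 5 of them from the center, stood apart from their replicates, and 2 of the 6 are among these 4. In the center the keratinocyte list was at a median of 10.14 on days 15 to 21. In bulk tissue, fewer cells of a type and less RNA per cell cannot be told apart.

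Compared per length, as mean FPKM over the 150 libraries, the receptor PLAUR was the most abundant at 85.1 ± 68.5 (SD, n = 150), followed by PLAU at 64.7 ± 36.8, F13A1 at 54.7 ± 38.3 and F3 at 40.9 ± 24.9. TFPI2 (22.2 ± 9.92), SERPINE2 (20.9 ± 16.0), PLAT (14.5 ± 6.86) and THBD (9.22 ± 6.77) came next, and TFPI was the lowest at 3.79 ± 2.46. These SDs include the differences between states, and the order was another one in skin, where F3 was the highest at 88.1 ± 22.3 FPKM (n = 6) and PLAUR was at 5.55 ± 1.82.

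Against day 0 skin, the wound held more RNA of the plasminogen activators and their receptor, of TFPI2 and of F13A1, and less of F3 and TFPI in its center. Of the 126 tests of 9 genes in 14 center states, 79 were above and 29 below day 0, where 28.3% and 27.5% of the tests over all genes were called above and below (edgeR, Benjamini-Hochberg adjusted p under 0.05). At the edge 58 of 126 tests were above and 11 below, beside 19.9% and 14.6% over all genes. PLAU and PLAUR were above day 0 in all 28 wound states, and PLAT in 26. F3 and TFPI were above it in no state. All of these comparisons share the 6 skin samples, and each state after day 0 comes from 3 of the 6 animals.

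**Figure D1:**
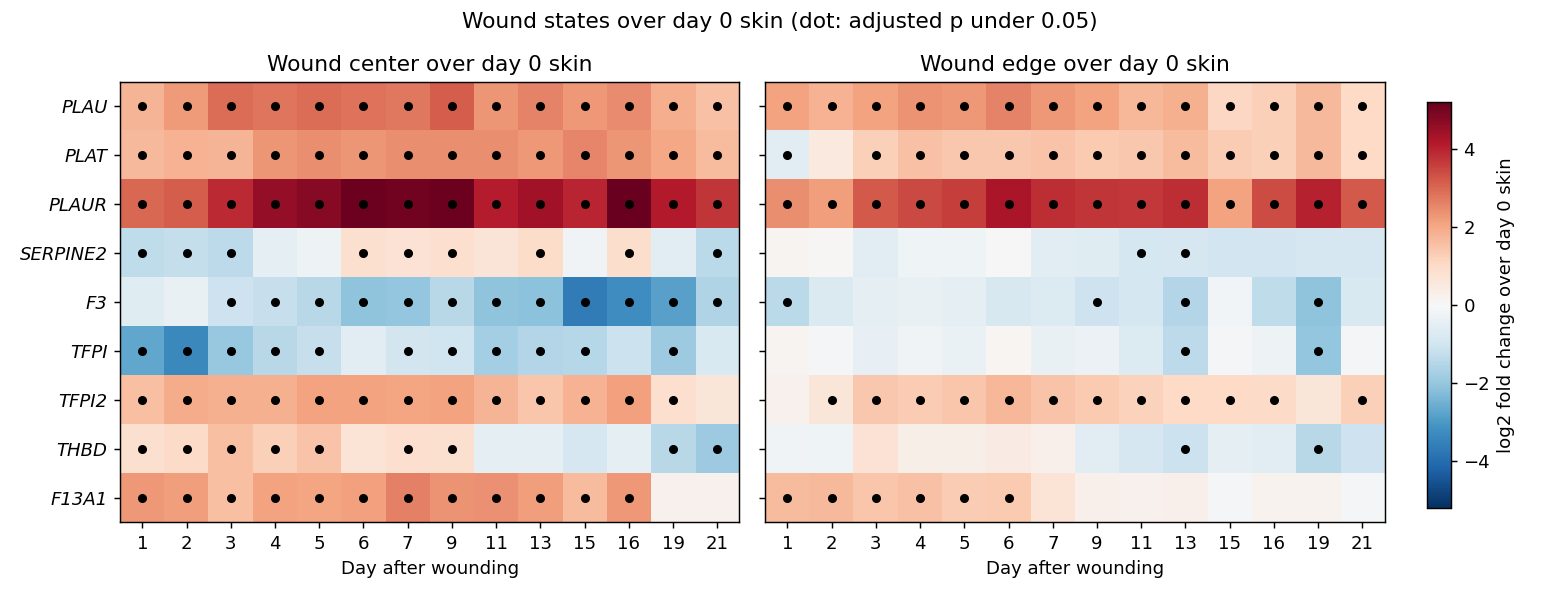
Log2 fold change of each gene (rows) in the wound center (left) and at the wound edge (right) over day 0 skin, by day after wounding (columns). Red is above skin, blue is below it, and a dot marks an adjusted p under 0.05. PLAU and PLAUR carry a dot in all 28 states, and F3 is blue throughout with dots in 12 center and 4 edge states.

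The urokinase gene PLAU (ENSSSCG00025026918, contig LUXX01056446.1, 773268 to 779146, minus strand) lay at 24.3 CPM in the lowest day 0 skin sample, 37.0 at the median and 45.9 in the highest. Each of the 144 wound libraries was above the highest skin sample, the lowest, an edge library of day 13, at 57.0 CPM. On day 5 the 6 center libraries ran from 250.3 to 329.5 CPM with a median of 282, the highest of the 29 state means on the log2(1 + CPM) scale. The fold change over day 0 was 7.44-fold there (log2 2.90, SE 0.32, adjusted p = 3.5e-14). Late edge libraries were the closest to skin. On day 21 they were at 57.5, 70.3 and 70.9 CPM, 1.04 above skin on the log2 scale (SE 0.35, adjusted p = 0.0239). On day 9 the center libraries split, with 4 between 105 and 185 CPM and 2 at 599 and 651 CPM.

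PLAUR (ENSSSCG00025075829, contig LUXX01083703.1, 536758 to 552445, minus strand), named by its protein match, rose the most of the 9. It lay between 5.75 and 12.1 CPM in skin with a median of 6.66. On day 7 the 6 center libraries held 199 to 272 CPM with a median of 248, and the groups were far apart (log2 5.03, SE 0.47, adjusted p = 1.73e-17). The lowest of the 144 wound libraries, an edge library of day 1 at 14.9 CPM, was still above the highest skin sample. The day 16 center libraries stood at 119, 189 and 380 CPM, and on day 21 they were at 79.5, 87.1 and 103 CPM, 3.72 above skin on the log2 scale (SE 0.48). The receptor had thus not returned to the level of skin in the center or at the edge by the last day sampled.

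PLAT (ENSSSCG00025050832, contig LUXX01071374.1, 788226 to 820159, plus strand) differed by location from the first day. In day 1 center libraries it ran from 25.9 to 75.2 CPM (median 46.4), above all skin samples, which lay between 9.43 and 18.5 CPM. At the edge of day 1 it was at 5.37 to 14.5 CPM (median 9.77), overlapping skin but below it by the test (log2 -0.59, SE 0.22, adjusted p = 0.0227), a call that was lost in 6 alternatives, library totals in place of TMM scaling among them. By day 3 the edge had reached 21.8 to 49.0 CPM, above each skin sample. In the center the level stayed within a narrow band, with log2 fold changes over skin between 1.65 and 2.52 in the 14 states.

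SERPINE2 (ENSSSCG00025033129, contig LUXX01055093.1, 2577946 to 2645971, plus strand), the serpin known as protease nexin 1, changed the sign of its location difference with time. Skin held 47.7 to 152.6 CPM (median 111). In the center of days 1, 2 and 3 the level fell to medians of 45.3, 54.8 and 42.6 CPM, and its log2 fold change over skin was between -1.22 and -1.37 on each of these days, or between -1.24 and -1.51 without the 4 libraries. It then rose to medians of 159 and 183 CPM on days 6 and 7, above skin by 0.83 (SE 0.32, adjusted p = 0.0168) and 0.77 (SE 0.32, adjusted p = 0.0275). On day 21 the center libraries were at 33.3, 34.9 and 39.4 CPM, below all skin samples and the lowest state mean. Edge levels moved the other way. They had a median of 128 CPM and a highest value of 160.5 CPM on day 1, and lay between 40.6 and 61.4 CPM on day 11. The number of states called depended on the fit: 5 states were above and 6 below day 0 with all libraries in 1 model, against 1 above and 12 below when each state was fitted with day 0 alone.

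F3 (ENSSSCG00025077627, contig LUXX01091791.1, 1808215 to 1819345, minus strand) was highest in unwounded skin, at 106 to 224 CPM with a median of 183. Its center level declined with time. The 6 center libraries of day 1 lay between 102 and 191 CPM, those of day 7 between 22.3 and 57.2 CPM, and the 3 of day 15 were at 10.3, 11.5 and 17.9 CPM. The day 15 center was 12.3-fold below skin (log2 -3.62, SE 0.62, adjusted p = 4.39e-07), and its libraries did not overlap the edge libraries of the same day, at 103, 167 and 201 CPM. On days 19 and 21, 1 of 3 center libraries was higher than the others, at 53.5 beside 4.76 and 9.84 CPM and at 120 beside 19.5 and 23.9 CPM. The adipocyte marker list was also highest in these 2 libraries, at 6.45 on day 19 and 7.69 on day 21, where the lowest libraries were at 1.75 and 1.70. In the day 15 center, with F3 between 10.3 and 17.9 CPM, the list was at 2.42, 5.76 and 5.30. The part of this list in the F3 values was not tested.

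TFPI (ENSSSCG00025073747, contig LUXX01097947.1, 1036619 to 1101763, minus strand), the Kunitz-type inhibitor of the tissue factor complex, was low in the center of the first days. In skin it was at 11.3 to 36.7 CPM (median 22.3). On day 1 the edge held 13.1 to 33.9 CPM (median 30.8), while 5 of the 6 center libraries lay between 1.05 and 1.46 CPM. The other center library, replicate 5, was at 19.1 CPM and is the one with edge-like keratinocyte markers. On day 2 the center ran from 0.733 to 4.78 CPM and the edge from 15.1 to 34.5 CPM, with no overlap. At such low center levels the log2(1 + CPM) scale compresses differences, which holds for the state means and correlations of TFPI. The center of day 2 was 10.2-fold below skin (log2 -3.36, SE 0.43, adjusted p = 2.25e-11). That of day 1 was at -2.68 (SE 0.41) with all libraries and at -4.46 (SE 0.39) without replicate 5. The state nearest to skin was day 6, at 10.5 to 27.6 CPM, with a log2 difference of -0.57 (SE 0.39, adjusted p = 0.195). The center was lower again on days 11 and 19, with medians of 7.02 and 4.50 CPM, and 11 of the 14 center states were called below skin.

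TFPI2 (ENSSSCG00025028441, contig LUXX01017516.1, 1085642 to 1101139, plus strand) went the other way from TFPI. It lay at 33.0 to 62.4 CPM in skin (median 41.7) and at 164 to 281 CPM in the center of day 5 (median 192), which did not overlap. The center was above skin in 13 of 14 states and the edge in 12 of 14. On day 1 the edge libraries, at 27.6 to 95.9 CPM, overlapped skin and differed by 0.23 on the log2 scale (SE 0.24, adjusted p = 0.448). The row is named TFPI2 in the deposited name column, and its annotation lists no Kunitz domain, which the TFPI row has. The 1 domain listed is DUF1725, which is known from mobile repeats, and the gene model is 5720 bases long. The assignment thus rests on the name, and how many of the counts come from repeats inside the model was not tested, which holds for each TFPI2 value given here.

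THBD (ENSSSCG00025060817, contig LUXX01096521.1, 1017441 to 1025800, plus strand), named by its protein match, rose early and fell late in the center. Skin was uniform at 52.1 to 76.1 CPM with a median of 60.7. The 6 center libraries of day 3 were at 87.4 to 278 CPM (median 210.5), above each skin sample by a log2 fold change of 1.58 (SE 0.37, adjusted p = 0.000123). On day 21 the center was at 9.02, 13.5 and 22.1 CPM, below each skin sample and 3.75-fold lower than skin (log2 -1.91, SE 0.49, adjusted p = 0.00107). At the edge no state passed the test above skin, and days 13 and 19 were below it, with log2 fold changes of -1.13 and -1.43.

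F13A1 (ENSSSCG00025051983, contig LUXX01100219.1, 2920276 to 3068900, plus strand), the transglutaminase that crosslinks fibrin and is abundant in macrophages and platelets, was raised in both locations during the first 6 days and afterwards in the center. Skin held 42.7 to 98.6 CPM (median 73.9). On day 2 the center was at 197 to 840 CPM and the edge at 180 to 379 CPM, all above skin. On day 9 the center was still at 234 to 496 CPM, while the edge had fallen to 52.7 to 148 CPM and overlapped skin. From day 7 on no edge state differed from skin by the test. The center libraries of days 19 and 21, at 59.1 to 94.8 CPM, lay within the range of skin.

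**Figure D2:**
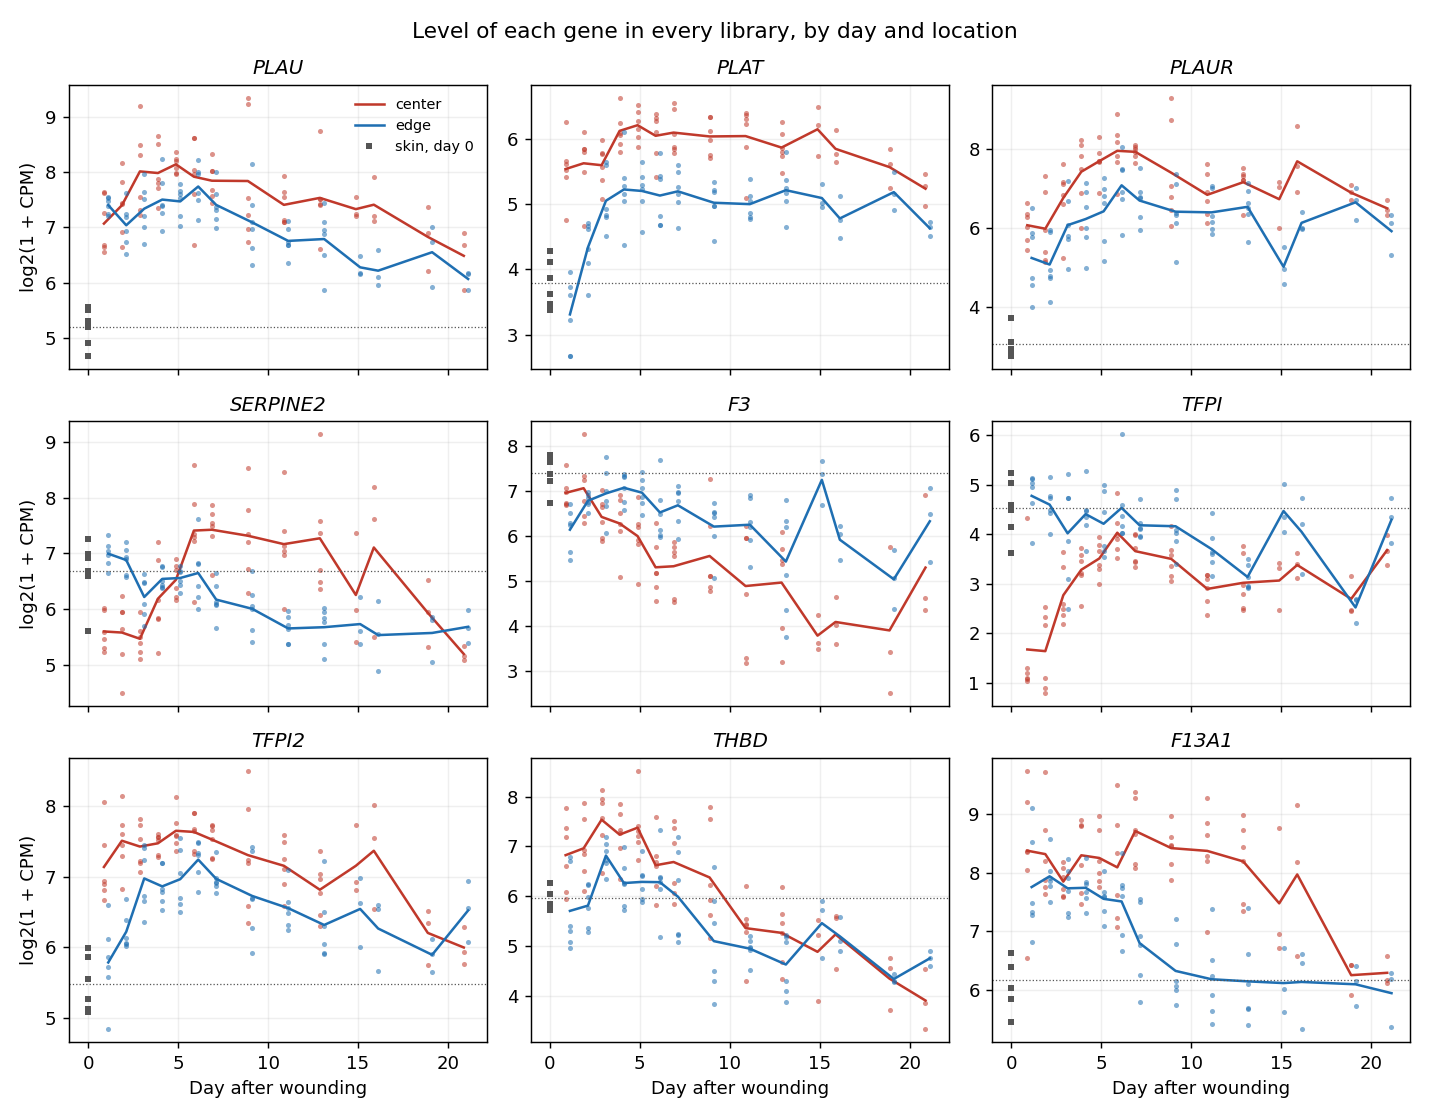
Level of each gene as log2(1 + CPM) on the vertical axis against the day after wounding. Each point is 1 library, lines join the state means of the center (red) and the edge (blue), and grey squares are day 0 skin with its mean as a dotted line. PLAU and PLAUR stay above the dotted line in all wound libraries, and the SERPINE2 lines cross between days 5 and 6.

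The order of the 29 state means was close to continuous. Of the 28 pairs of neighbours in that order, the gap exceeded the larger SD of the pair in 1 pair each for PLAU (day 21 edge over day 0), PLAUR (day 15 edge over day 0) and PLAT (day 2 edge over day 0), and in no pair for the other 6 genes. Day 0 thus sat apart at the bottom for PLAU and PLAUR. The widest range of state means belonged to PLAUR, at 4.89 on the log2(1 + CPM) scale, and the narrowest to TFPI2, at 2.17.

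Edge and center were compared within each day, where both sides come from the same wounds. Of 126 tests of the 9 genes, 16 were higher at the edge and 36 higher in the center, beside 12.6% and 10.9% of the tests of all genes over the 14 days. The gene called on the most days was PLAT, higher in the center on 11 of 14 days. On day 1 its difference was -2.28 on the log2 scale (SE 0.31, adjusted p = 0.000217). Edge and center libraries of PLAT did not overlap on days 1, 5, 7 and 9, with 6 libraries a side, and on days 15, 16 and 21, with 3. Its difference on day 21 did not pass the test, and the share of all genes without overlap was not computed. TFPI was higher at the edge on 8 days, from 3.30 on day 2 (SE 0.45, adjusted p = 8.04e-05) to 0.56 on day 7 (SE 0.18, adjusted p = 0.0258). F3 was higher in the center on day 1 (log2 -0.75, SE 0.22, adjusted p = 0.016) and higher at the edge on days 4 to 7, 15 and 16. SERPINE2 was higher at the edge on days 1 and 2, by 1.45 (SE 0.18) and 1.28 (SE 0.22), and higher in the center on days 7, 9, 11 and 13, with log2 differences from -1.28 to -1.80. On day 21 its sign was again that of the first days, and the 3 edge libraries, at 41.1, 50.0 and 62.7 CPM, lay above the 3 center libraries, but the difference did not pass the test (0.52). F13A1 was higher in the center on days 5, 7, 9, 11 and 13, with a log2 difference of -2.16 on day 11 (SE 0.37, adjusted p = 0.000806), which was -2.33 (SE 0.31) without center replicate 1.

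**Figure D3:**
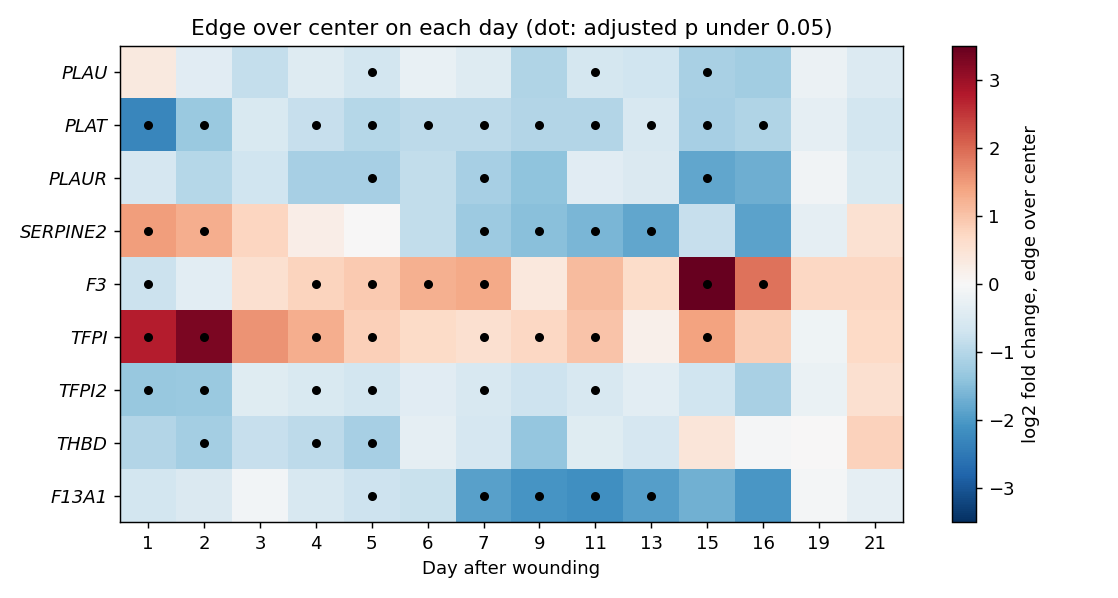
Log2 fold change of edge over center for each gene (rows) on each day after wounding (columns). Red is higher at the edge, blue is higher in the center, and a dot marks an adjusted p under 0.05. PLAT has dots on 11 days, all in blue, TFPI has dots on 8 days, all in red, and SERPINE2 turns from red to blue and is red again on day 21.

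On day 3 no gene of the whole table passed the test between edge and center, though 1666 of them had an unadjusted p under 0.05, and DESeq2 called 1. Center replicate 4 and edge replicate 6 of this day are among the 4 libraries that went against their labels. Without them 1919 genes were higher at the edge and 711 in the center, and of the 9 genes SERPINE2 (log2 1.03, SE 0.15, adjusted p = 0.0011), TFPI (2.08, SE 0.41, adjusted p = 0.00541) and F3 (0.90, SE 0.25, adjusted p = 0.0274) were higher at the edge. Both libraries were left out after seeing the data, by a list that separates edge from center. More calls between the locations follow in part from that choice, so these p-values describe and are no independent test. Days 15, 16, 19 and 21 have 3 wounds each. On days 19 and 21 edgeR called 0 and 10 genes. On day 15 it called 1105 genes higher at the edge and 1437 in the center, and on day 16 it called 606 and 845. The keratinocyte list was at 10.25 and 10.57 in the center of days 19 and 21, beside 10.83 and 10.54 at the edge, whereas it was at 8.63 and 7.13 in the center of days 15 and 16. Its part in these numbers was not tested. Unadjusted p was under 0.05 for 479 genes on day 19, and DESeq2 called 8 genes higher at the edge and 1 in the center on day 19, and 234 and 78 on day 21. With the wound as a block in the model, TFPI2 was higher in the center on 9 days in place of 6, F13A1 on 7 in place of 5 with days 15 and 16 added (-1.45, SE 0.27 and -1.81, SE 0.34), SERPINE2 on 5 in place of 4, and PLAU, PLAUR and THBD on 5 days each in place of 3. Without the 4 libraries THBD was also higher in the center on 5 days. The TFPI difference of day 1 was 2.76 (SE 0.78, adjusted p = 0.0124) with all libraries and 4.57 (SE 0.27, adjusted p = 5.96e-08) without center replicate 5. That library was left out by the same choice, and its TFPI value lay far above those of the other center libraries. The smaller p follows in part from leaving it out.

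Averaged over the 14 days with equal weight, all 9 genes differed between edge and center, 2 higher at the edge and 7 in the center, beside 32.5% and 33.8% of all genes. The median log2 difference was -0.58 over the 9 and -0.01 over all 17916 genes tested. TFPI (1.12, SE 0.12, adjusted p = 2.72e-15) and F3 (0.91, SE 0.13, adjusted p = 2.4e-10) were higher at the edge, at 1.27 and 0.91 without the 4 libraries. F13A1 was 2.15-fold higher in the center (log2 -1.11, SE 0.11), PLAT 1.95-fold (SE 0.07 on the log2 scale) and PLAUR 1.92-fold (SE 0.12). TFPI2, PLAU, THBD and SERPINE2 were higher in the center by smaller amounts, from 1.51-fold to 1.33-fold. The direction was the same in 6 of 6 animals for each gene but SERPINE2, whose edge was higher in 1 of 6. Within wounds, the edge exceeded the center in 65 of 72 wounds for TFPI, in 54 for F3, and in 3 for PLAT. For SERPINE2 it did so in 31 of 72, and animals 1323 to 1325 alone gave -0.15 (adjusted p = 0.204).

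Early wounds (days 1, 2 and 3) were set against late wounds (days 15, 16, 19 and 21), since both windows hold all 6 animals. Animals 1323 to 1325 gave days 1 and 3, and animals 1326 to 1328 gave day 2. By the labels the early wounds are A, F, G and L and the late ones D and I. Time and the labelled wound therefore cannot be told apart. In the center 4 of the 9 genes rose and 4 fell, where 27.3% of all genes rose and 31.4% fell. THBD fell by 2.33 on the log2 scale (SE 0.26, adjusted p = 4.42e-14): the 18 early libraries ran from 60.1 to 278 CPM and the 12 late ones from 9.02 to 47.3 CPM, with no overlap. F3 fell by 2.11 (SE 0.29, adjusted p = 2.73e-10), from a median of 105 to 16.7 CPM. F13A1 fell by 0.92 (SE 0.24) and TFPI2 fell by 0.41 (SE 0.15). TFPI rose by 1.35 (SE 0.25, adjusted p = 1.67e-06), from a median of 3.52 to 9.17 CPM, and without the 4 libraries by 2.05 (SE 0.21, adjusted p = 1.66e-15). The other 8 values were then -2.36 for THBD, -2.02 for F3, -0.90 for F13A1, -0.39 for TFPI2, -0.30 for PLAU, 0.87 for PLAUR, 0.36 for PLAT and 1.08 for SERPINE2, with the same calls. PLAUR rose by 0.88 (SE 0.25) and PLAT by 0.36 (SE 0.14). The calls of PLAUR, PLAT and TFPI2 were lost when replicate 2 of each state was left out, and PLAT was at 0.08 (adjusted p = 0.636) with library totals in place of TMM scaling. SERPINE2 rose by 0.99 (SE 0.20), though the medians were 45.8 CPM early and 52.8 CPM late and the late libraries ran from 33.3 to 290.6 CPM. Those over 150 CPM were 1 of day 15 and 2 of day 16. For PLAU the difference was -0.27 (SE 0.19, adjusted p = 0.226), and with library totals it passed the test at -0.55 (adjusted p = 0.00971).

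At the edge 2 of the 9 genes rose and 4 fell, beside 20.2% and 24.5% of all genes. PLAT rose by 0.94 (SE 0.14, adjusted p = 5.52e-09), from a median of 20.3 CPM early to 29.5 CPM late. PLAUR rose by 0.59 (SE 0.25, adjusted p = 0.0489), a call that was lost with the animal as a block (adjusted p = 0.0657). F13A1 fell by 1.54 (SE 0.25, adjusted p = 7.24e-08), and each of the 18 early edge libraries, at 112 CPM or over, was above each of the 12 late ones, at 104 CPM or under. THBD fell by 1.01 (SE 0.24), SERPINE2 fell by 0.81 (SE 0.21) and PLAU fell by 0.73 (SE 0.20). The differences of F3 (-0.21, SE 0.27), TFPI (-0.50, SE 0.25) and TFPI2 (0.22, SE 0.15) did not pass the test. Without the 4 libraries that of TFPI did, at -0.52 (adjusted p = 0.0291), no other call changed, and PLAT was at 1.03 and F13A1 at -1.44.

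The change of the edge to center difference was tested itself. It rose for 4 of the 9 genes and fell for 2, beside 13.4% and 14.9% of all genes. F3 moved toward the edge by 1.90 (SE 0.38, adjusted p = 3.87e-05): early medians were 104 CPM at the edge and 105 in the center, and late medians 69.9 and 16.7. THBD moved toward the edge by 1.32 (SE 0.33, adjusted p = 0.0011), TFPI2 by 0.63 (SE 0.22) and PLAT by 0.57 (SE 0.20), and the last 2 calls were lost when replicate 1 of each state was left out. For TFPI the difference fell by 1.85 (SE 0.36, adjusted p = 2.35e-05), and for SERPINE2 it fell by 1.80 (SE 0.29, adjusted p = 5.44e-07). For PLAU, PLAUR and F13A1 the change did not pass the test, at -0.47 (SE 0.27), -0.29 (SE 0.36) and -0.62 (SE 0.33). Without the 4 libraries the same 6 genes were called, with TFPI at -2.57 (SE 0.30), SERPINE2 at -1.87, F3 at 1.82, THBD at 1.38, TFPI2 at 0.70 and PLAT at 0.68. With library totals in place of TMM scaling the median of all genes shifted from -0.06 to -0.34 in the center and from -0.03 to -0.29 at the edge, so levels in CPM read lower late than the fitted values do. Calls over all genes were then 3230 higher and 8695 lower in the center, in place of 4886 and 5631, and 2002 and 7564 at the edge, in place of 3616 and 4388.

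**Figure D4:**
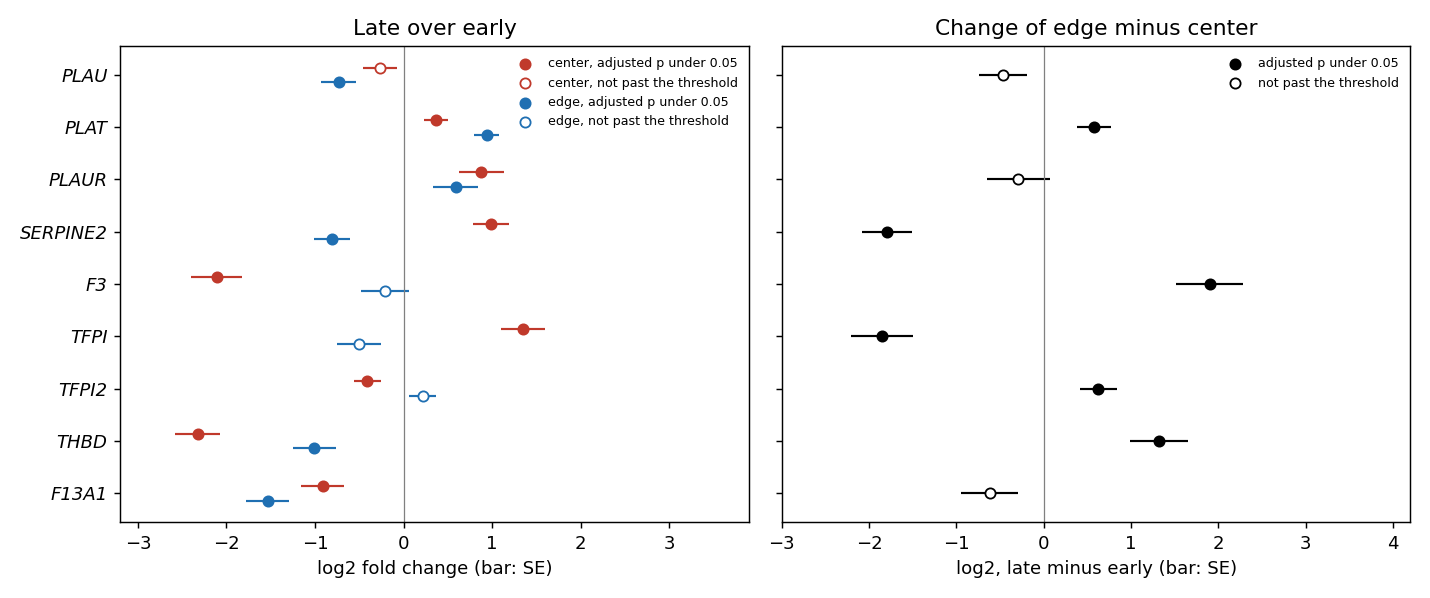
Left, log2 fold change of late (days 15, 16, 19 and 21) over early (days 1, 2 and 3) wounds in the center (red) and at the edge (blue); right, the change of edge minus center between these windows. Bars are SEs, and filled points have an adjusted p under 0.05. F3 and THBD have the lowest values in the center (-2.11 and -2.33), and the values of SERPINE2 and TFPI on the right are negative (-1.80 and -1.85).

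The wider pathway was read from 41 other genes of clotting and fibrinolysis, all found, of which 33 had enough counts to be tested. Over all days 8 were higher at the edge, 14 higher in the center and 11 not called, where 32.5% and 33.8% of all genes were called. F2RL1, a protease-activated receptor of epithelia, was higher at the edge by 2.38 (SE 0.14), F12 by 1.30 (SE 0.17) and F2, which encodes prothrombin, by 1.10 (SE 0.18). TGM2, the tissue transglutaminase, was higher in the center (log2 -2.01, SE 0.16). F2RL3 was called higher in the center too, at medians of 0.289 CPM at the edge and 0.468 CPM in the center, near the limit of detection, so no fold is given. Of the groups, 1 mixed set of 5 genes held TGM2 for crosslinking, GGCX and VKORC1 for vitamin K, and also LMAN1 and MCFD2. All 5 were called higher in the center. Beside TGM2 the differences were small, at -0.35 for LMAN1, -0.30 for GGCX, -0.12 for VKORC1 and -0.09 for MCFD2. Of 12 procoagulant factors 3 were higher at the edge and 3 in the center, of 7 fibrinolysis genes 3 and 2, of 5 receptors 2 and 2, and of 4 anticoagulants 0 and 2. F2 and F12 were low, with medians of 3.65 and 1.94 CPM at the edge.

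From early to late in the center, 8 of the 33 rose, 15 fell and 10 were not called, beside 27.3% and 31.4% of all genes. F2 rose by 2.79 (SE 0.39), F2RL1 by 1.63 (SE 0.28) and F12 by 1.53 (SE 0.35). These 3 were low in the center, with medians over all center libraries of 0.947 CPM for F2, 0.710 for F12 and 1.875 for F2RL1. The lowest count of F2 and of F12 was 0, so the sizes of these rises are uncertain. F7, the partner of tissue factor, and KLKB1 were called lower late at medians of 0.225 and 0 CPM in the center, near the limit of detection, so no fold is given for them. FGG, the gamma chain of fibrinogen, was also called lower late, but it was at 0 in 139 of 150 libraries and at 745 counts in 1 center library of day 2, so none is given there either. At the edge 8 rose, 9 fell and 16 were not called, beside 20.2% and 24.5% of all genes. The edge to center difference rose for 10, fell for 3 and was not called for 20, beside 13.4% and 14.9%.

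Levels of cell type markers moved with several of the 9 genes across the 29 state means, which share libraries and scaling, so the correlations describe and do not test. PLAT followed the endothelial list (r = 0.92) and so did TFPI2 (r = 0.91). F13A1 followed the list of macrophages and monocytes (r = 0.87), as did PLAU (r = 0.85), and F13A1 also followed the platelet list (r = 0.86). The lists did not single out 1 cell type per gene. PLAU was at r = 0.83 with the platelet list, and TFPI2 at 0.79 with macrophages and monocytes and 0.76 with platelets. TFPI ran against the endothelial list (r = -0.57). THBD followed the platelet (r = 0.76) and adipocyte (r = 0.75) lists, F3 the adipocyte list (r = 0.69), and TFPI the hair follicle (r = 0.63) and keratinocyte (r = 0.58) lists. All 10 endothelial genes were found, and the list was higher in the center (6.58 ± 0.36, SD, n = 72) than at the edge (5.83 ± 0.44, n = 72) and in skin (5.09 ± 0.25, n = 6). The 10 genes for macrophages and monocytes were at 7.10 ± 0.48 in the early center and 6.13 ± 0.40 in the late center. The adipocyte list, with 7 of its 8 genes found, was at 8.77 ± 1.03 in the early center, where it ranged from 7.09 to 10.36, and at 3.92 ± 2.17 in the late center, from 1.70 to 7.69. The platelet list was low throughout, between 1.27 and 2.62 in all wound libraries. The part of the cell mixture in the values of the 9 genes was not tested.

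**Figure D5:**
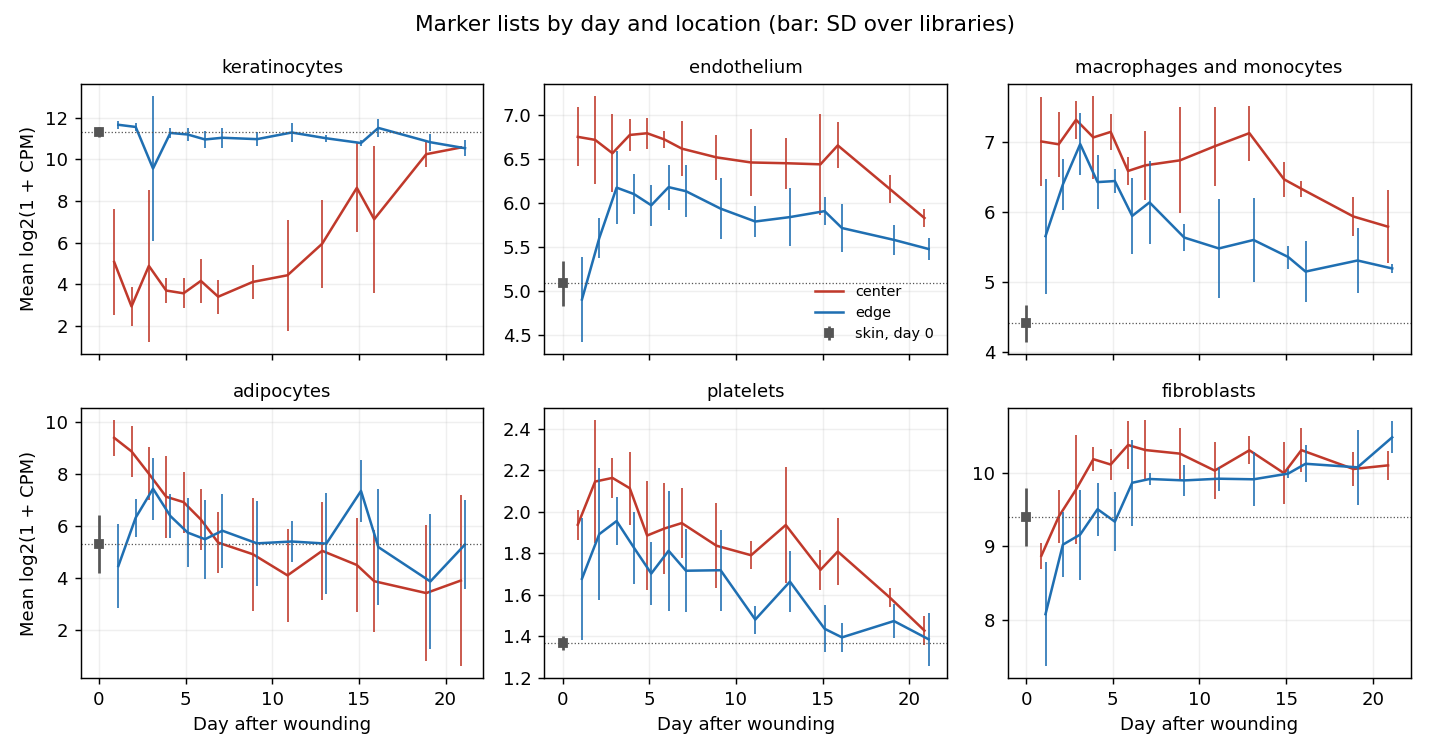
Mean log2(1 + CPM) of 6 marker lists against the day after wounding, for the center (red), the edge (blue) and day 0 skin (grey square, dotted line), with bars for the SD over libraries. The keratinocyte list lies near 11 at the edge on all days but day 3 and climbs in the center after day 11, and the adipocyte list falls in the center from 8.77 early to 3.92 late.

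Among themselves, the 9 genes fell into loose groups over the 29 state means. PLAUR and PLAT (r = 0.81), PLAU and TFPI2 (r = 0.81), and PLAU and F13A1 (r = 0.80) went together. TFPI ran against PLAT (r = -0.56) and F3 against PLAUR (r = -0.57). Of 13518 named genes with a mean of at least 1 CPM, those most like PLAT were the basement membrane collagens COL4A2 (r = 0.98) and COL4A1 (r = 0.97). PLAUR was most like CKAP4 (r = 0.97) and INHBA (r = 0.96), F13A1 like SLC43A2 (r = 0.96) and the monocyte receptor gene CD14 (r = 0.95), and PLAU like MTAP and PDIA6 (both r = 0.95). F3 was most like BTC (r = 0.95) and ALDH1A1 (r = 0.91), THBD like NUP98 and the lipid droplet gene PLIN2 (both r = 0.94), and TFPI2 like ST3GAL1 and ADI1 (both r = 0.94). TFPI had CDCA7L (r = 0.90) and HSPA4L (r = 0.86). SERPINE2 had the loosest match, PROCR (r = 0.84), the endothelial protein C receptor, and PCP4L1 (r = 0.82).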

How the data were processed

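Poly-A RNA of 150 pig skin and wound samples was sequenced as paired reads. The authors deposited raw counts per gene, without normalization, and FPKM values. The aligner, the counting tool, the strand setting and the genome build are not given in the sources used here, and genes lie on contigs with Ensembl identifiers. Symbols came from the name column (12300 genes) or the protein match (9387 genes), and 8774 genes stayed unnamed. The list of 9 genes, the pathway list and the marker lists were chosen with earlier results of these data known. The genes named from the pathway list were up to 3 in each direction with the largest fold change among those called, and 1 of them is not reported here.

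CPM were computed from the deposited counts by library totals, and log2 levels use a pseudocount of 1. Depth ran from 13133379 to 24895572 counts, so 3 counts correspond to 0.121 to 0.228 CPM, which covers counting error only. No 2 of 339 replicate pairs held identical counts. Groups, animals and wounds were read from the labels.

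Tests used edgeR 4.0.16 in R 4.3.3 (quasi-likelihood, TMM, genes with a minimum count of 10 by filterByExpr, Benjamini-Hochberg adjustment over all genes tested, threshold 0.05). Edge and center were fitted day by day, and the other contrasts in 1 model of 29 state means. Steps were tested on simulated data. Alternatives were DESeq2 1.42.0, no TMM, no filter, replicates or libraries left out, wounds of an animal summed, blocks and sets of animals. Leaving out the 4 libraries whose keratinocyte markers went against their label was chosen after seeing the data. Edge and center of a wound come from the same animal and wound by the labels, and their deviations from the state means correlated with a mean r of 0.270, above 0 in 64 of 72 wounds. The 2 wounds of an animal are not independent animals, so p-values over wounds measure wounds. Python 3.11.15 with matplotlib 3.10.9 made the figures. The 3 pathway symbols with 2 rows were represented by the row with more counts.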

Additional observations from a re-analysis of the deposited data

Results flagged for a closer look

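In 5 of the 189 sets of 6 libraries tested for the 9 genes, 1 library lay apart from the other 5 (Dixon's ratio), where chance alone flags about 1 in 20. PLAUR was at 79.2 CPM in center replicate 1 of day 13 and at 148 to 181 CPM in the other libraries, and its lists of endothelium (6.14), macrophages and monocytes (6.67), neutrophils (4.13) and platelets (1.44) lay below the lowest of the others (6.26, 6.85, 4.89 and 1.86). TFPI was at 19.1 CPM in center replicate 5 of day 1, beside 1.05 to 1.46 CPM, and this library's keratinocyte list was at 10.07, beside 3.23 to 5.07. TFPI was also at 63.8 CPM in edge replicate 5 of day 6, beside 15.2 to 22.9 CPM, where the keratinocyte list, at 11.25, lay within the range of the others. In edge replicate 3 of day 7 TFPI was at 25.3 CPM, beside 14.5 to 17.7 CPM. In these 3 libraries the neutrophil list, at 5.54, 4.66 and 5.45, lay below the lowest of the others, at 5.74, 4.95 and 5.85. Further lists were outside too. Fibroblasts were above on day 1 (9.10, highest 9.04). On day 6 platelets (1.54, lowest 1.57), skeletal muscle (0.246, 0.307) and hair follicle (0.1225, 0.1329) were below. On day 7 macrophages and monocytes were below (5.64, lowest 5.67). Smooth muscle and pericytes (7.09, highest 7.03) and erythrocytes (2.466, 2.465) were above there. TFPI2 was at 162.6 CPM in edge replicate 5 of day 7, beside 109 to 126 CPM, and there the hair follicle list was at 4.96, beside 0.0804 to 0.477, while the adipocyte (7.38) and skeletal muscle (0.969) lists were also above the highest of the others (7.04 and 0.521). Whether these markers have a part in the values was not tested.

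For 6 genes the edge to center difference changed between days 1 to 3 and days 15 to 21 by the test of the change itself. The change was 1.90 for F3, 1.32 for THBD, 0.625 for TFPI2 and 0.572 for PLAT, each toward a higher edge, and -1.797 for SERPINE2 and -1.852 for TFPI, toward a higher center. For each of the 6 genes the change had the same sign in animals 1323 to 1325 and in animals 1326 to 1328.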

How the results depend on the processing

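Of 549 values recomputed under the alternatives, 506 kept their direction and their side of the threshold, 34 kept the direction and lost the call, 4 gained one and 5 changed sign. Leaving out each replicate in turn gave 36 to 50 calls of the 9 genes between edge and center on single days (52 with all), 160 to 177 against day 0 (177), 9 over all days (9), 5 to 8 for late against early in the center (8), where 5 came without replicate 2, 5 to 6 at the edge (6) and 4 to 6 for the change of the difference (6). Days with 3 wounds have no replicate 4, 5 or 6. Without each of these, 45 of the 52 calls on single days were refitted and the rest were carried over. No called value that was refitted changed sign in the comparisons on single days or with day 0. With the wound as a block, 64 calls between edge and center were made and 51 of the 52 were kept, and over all days 9 of 9 were called. With the animal as a block, 165 calls against day 0 were made and 163 of the 177 were kept. The fit of all 150 samples kept 39 of the 52. Without the 6 libraries that stood apart, 51 of 52 and 177 of 177 were kept, and without the 4 that went against their labels 52 and 177.

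Animals 1326 to 1328 alone gave 2 calls for the change of the difference in place of 6, and PLAUR was at 0.11 there. In animals 1323 to 1325 alone the late difference at the edge was -0.13 for PLAUR, 0.49 for F3 and 0.074 for TFPI, and with library totals it was -0.037 for TFPI2. Of these values PLAUR at the edge was called with all animals (0.59). The cause of these changes was not tested. Over all genes, 8004 were called late against early at the edge and 3746 in animals 1326 to 1328. For the change of the difference 5064 were called, with 3252 without replicate 3, 3115 in animals 1323 to 1325 and 2386 in animals 1326 to 1328. Depth limits low genes such as F7 and KLKB1.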

Other observations

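On day 9 both wounds of animal 1327 stood above the 4 wounds of the other animals for 7 of the 9 genes in the center (PLAU, PLAUR, PLAT, SERPINE2, F3, THBD and TFPI2) and for 7 of 9 at the edge (PLAU, PLAUR, SERPINE2, THBD, F13A1, TFPI and TFPI2). In the center PLAU was at 599 and 651 CPM, beside 105 to 185 CPM in the other 4 libraries, PLAUR at 426 CPM or over, beside 64.7 to 133 CPM, and F3 at 154 and 73.9 CPM, beside 26.4 to 33.5 CPM. At the edge TFPI was at 25.2 and 28.5 CPM in this animal, beside 9.52 to 15.9 CPM. The pattern was chosen after its values were seen, and the animal was sampled with the other 2 in the same state, so it was not tested. The share of all genes with the same pattern was not computed. Whether the pattern is particular to the 9 genes is therefore not known. Among the 60 combinations of an animal with a state of 6 libraries, the next highest number of genes was 5, also in animal 1327, in the center of day 2 (PLAUR, SERPINE2, F3, THBD and TFPI2), and the median was 0.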
